A study of Homo sapiens with 18 samples.

Results

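The contractile genes of myoepithelial cells were followed over 3 human mammary epithelial lines, on 18 arrays of the type Affymetrix HG-U133 Plus 2.0. They were a set of 10 genes, ACTA2, ACTG2, TAGLN, CNN1, CNN2, MYL9, MYLK, TPM1, TPM2 and CALD1, out of 19775 genes that the array annotation ties to a probe set of a single gene. Each gene was read by 1 to 11 probe sets, 38 in all, and was represented by the one with the highest mean over the 18 arrays; the remaining probe sets served as a check. Of the 10 genes, 8 lay above the level that a gene needed to be tested, as did 12171 of the 19775 genes. CNN1 and MYL9 lay below it with the probe set of the rule, and only single probe sets of theirs were tested, with no such level. MYLK lay above it through CD10+ M1B26 alone, since its mean was 3.96 on the log2 scale over all arrays and 3.72 over the other 16, against a level of 3.93.

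The lines were MCF10A-CT, the control stock of MCF10A, an immortalised and non-malignant mammary epithelial line, and MC26 and M1B26, which are MCF10A derivatives that the study grew for a long time with IL6, a cytokine, and BMP2, a growth factor. MC26 came from unsorted MCF10A cells. M1B26 came from cells sorted for the BMP receptor BMPR1B and was expanded from a few soft-agar clones, so that it stands for those clones and not for a treatment alone. Arrays were made from unsorted cells of a line and from its CD10- and CD10+ cells, separated by flow cytometry. This gave 9 groups of 2 arrays, which the labels call biological replicates without saying what set them apart. MCF10A-CT was kept in standard medium, with horse serum, insulin, hydrocortisone, cholera toxin and EGF common to all lines, whereas the medium of MC26 and M1B26 also held 10 ng/ml IL6 and BMP2, for which the labels give both 5 and 10 ng/ml. Line, treatment and clone therefore cannot be told apart in any comparison between lines.

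Myoepithelial cells form the contractile outer layer of mammary ducts and alveoli and share with smooth muscle a set of actin-bound proteins. Phosphorylation of the myosin regulatory light chain by myosin light chain kinase starts the pull of myosin on actin filaments, while tropomyosins, caldesmon and calponins sit on the filament and gate that pull. CD10, the endopeptidase encoded by MME, is a surface marker of myoepithelial cells in the breast. Many genes of this kind are driven by serum response factor through a sequence called the CArG box.

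The windows upstream of the transcription starts are shown because some of these genes carry that sequence there. RefSeq windows (GRCh38.p14) were found for 8 of the 10 genes, with 13 starts in all, and the 250 bases before each start were searched for exact matches, so that near matches with a differing base were not counted. A CArG box was present in at least 1 window of 3 of these 8 genes, ACTG2, CNN2 and MYLK, and in 1.44% of all 27305 genes with a window. The printed ACTA2 window holds near matches, ccctatatgg and ccttgtttgg, which the exact search did not count and which are not in capitals. The muscle motif GGAATG (both strands) was present in 2 of the 8, ACTA2 and CALD1, and in 14.3% of all genes. The printed windows run 5′ to 3′ on the strand of the gene and end at the base before the start, and capitals mark a CArG box or, in ACTA2, the GGAATG motif.
ACTA2 (chr10:88952774-88953023, minus strand): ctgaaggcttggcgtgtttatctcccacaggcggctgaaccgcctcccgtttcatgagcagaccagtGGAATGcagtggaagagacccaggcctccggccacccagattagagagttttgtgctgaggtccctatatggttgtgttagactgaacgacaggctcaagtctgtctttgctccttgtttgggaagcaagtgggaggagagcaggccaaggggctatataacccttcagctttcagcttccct
ACTG2 (chr2:73892758-73893007, plus strand): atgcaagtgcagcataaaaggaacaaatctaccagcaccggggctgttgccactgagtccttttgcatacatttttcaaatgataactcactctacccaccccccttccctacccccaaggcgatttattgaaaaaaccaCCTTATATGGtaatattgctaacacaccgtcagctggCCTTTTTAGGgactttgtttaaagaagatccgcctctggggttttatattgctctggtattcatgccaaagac
CNN2 (chr19:1026358-1026607, plus strand): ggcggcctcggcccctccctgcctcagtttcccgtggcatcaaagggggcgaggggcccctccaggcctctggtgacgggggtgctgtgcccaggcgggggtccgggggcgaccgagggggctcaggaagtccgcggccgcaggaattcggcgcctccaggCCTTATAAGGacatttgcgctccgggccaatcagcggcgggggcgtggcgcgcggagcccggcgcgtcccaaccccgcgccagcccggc
MYLK (chr3:123620549-123620798, minus strand): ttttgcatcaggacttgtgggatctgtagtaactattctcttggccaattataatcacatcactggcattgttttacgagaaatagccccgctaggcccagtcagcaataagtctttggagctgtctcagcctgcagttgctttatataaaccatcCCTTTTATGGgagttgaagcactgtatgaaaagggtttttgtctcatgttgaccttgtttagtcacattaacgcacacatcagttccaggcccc
ACTG2 held 2 CArG boxes, whose first bases lay 110 and 73 bases before the start. The single boxes of CNN2 and MYLK began 89 and 94 bases before it. The MYLK start of this window lies inside the gene, which spans 123610049 to 123884332 on chromosome 3, so that the window does not precede the long transcripts. No binding was measured in these samples, and a match is a description of letters.

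Values are deposited intensities on a linear scale, and differences were computed on log2(intensity + 1), so that a difference of 1 is a doubling. Between replicates the arrays correlated at 0.949 to 0.979 over the tested genes. The sort was checked with MME, which read 9.73 and 11.3 in CD10- and 48.3 and 65 in CD10+ MCF10A-CT cells, 27.8 and 6.39 against 69.8 and 90.7 in MC26, and 56.4 and 15.9 against 1269 and 1021 in M1B26. The CD10+ arrays were above the CD10- arrays in every line, and the step was largest in M1B26, where the log2 difference of 5.19 passed (limma, adjusted p = 0.000128) while that of 2.31 in MCF10A-CT and that of 2.46 in MC26 missed the threshold. The epithelial keratin KRT5 had group means of 12.13 to 12.68 on the log2 scale in all 9 groups. Other epithelial genes varied more, with group means of 9.04 to 12.27 for the keratin KRT14 and 5.56 to 10.66 for the cadherin CDH1. One array stood apart for several of these genes, the second replicate of unsorted MC26, and is described with its own values below.

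CD10+ M1B26 cells carried the highest group mean of 7 of the 10 genes, ACTA2, TAGLN, CNN1, MYLK, TPM1, TPM2 and CALD1. The share of all genes highest in that group was not computed, so the count is a description. It includes MYLK, tested only through that group, and CNN1, whose group means all lay under the testing level. CNN2 and ACTG2 were highest in CD10- M1B26, and the MYL9 probe set of the rule was highest in unsorted MC26. Most steps in these orders were smaller than the gap between arrays: of the 8 neighbouring pairs of groups, none had separate arrays for MYL9, 1 had for ACTG2, TAGLN, CNN2, MYLK and TPM1, 2 had for ACTA2, TPM2 and CALD1, and 3 had for CNN1.

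**Figure D1:**
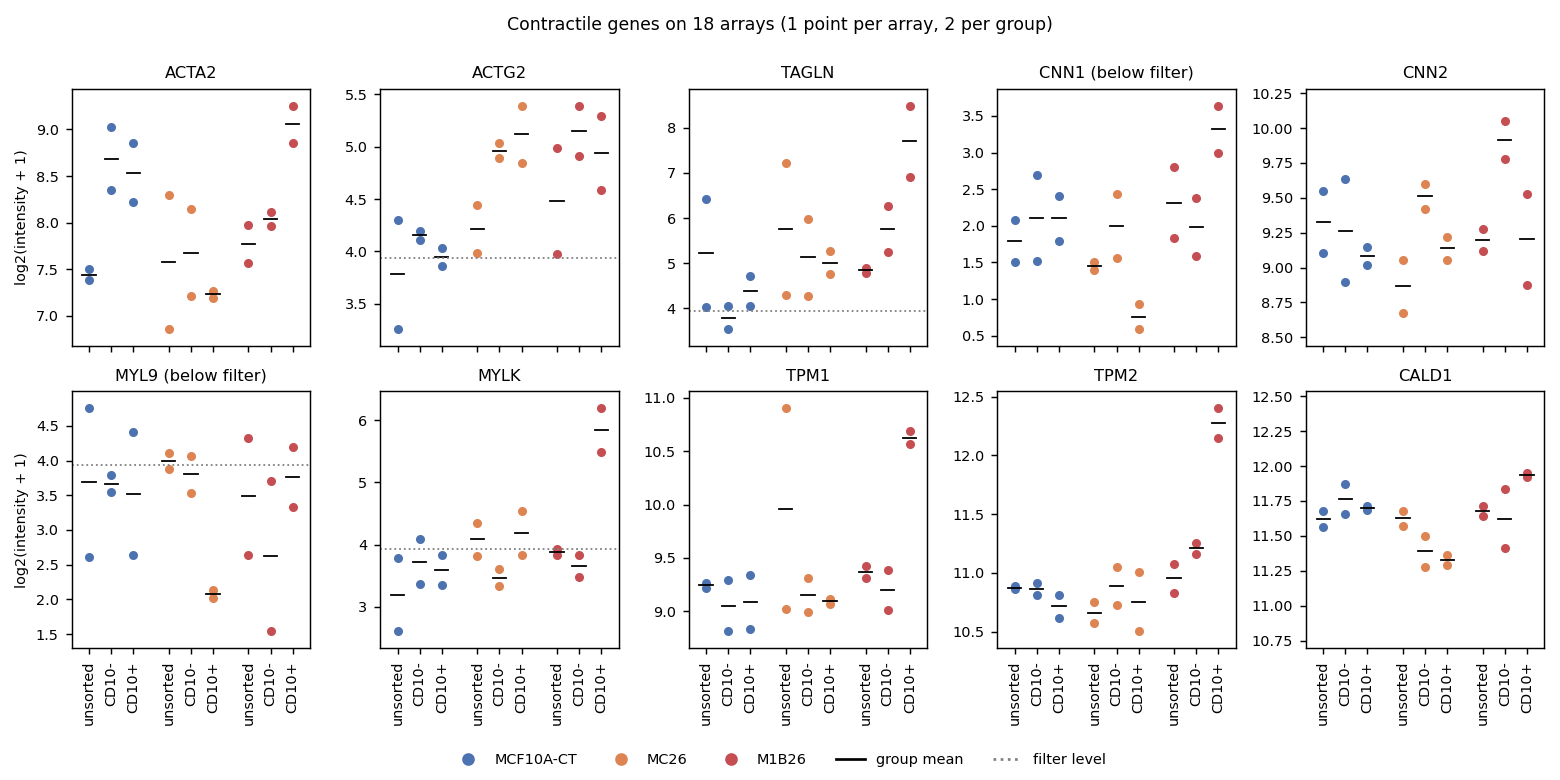
Log2(intensity + 1) of each contractile gene (y axis, own scale in each panel) on every array, grouped by population along the x axis and coloured by line; black bars are group means and the dotted line is the level needed for testing. Both CD10+ M1B26 arrays lie above all other arrays for MYLK and TPM2, and the 2 unsorted MC26 arrays lie far apart for TPM1, TAGLN and ACTA2.

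The tropomyosins, which lie along the actin filament and control the access of myosin, were among the genes that differed by CD10 status in M1B26. The intensity of TPM2 in MCF10A-CT was 1889 and 1865 on the unsorted arrays, 1792 and 1929.9 on the CD10- arrays and 1800.4 and 1572 on the CD10+ arrays. For the same gene, in MC26 it was 1519 and 1725 on the unsorted arrays, 2116 and 1695 on the CD10- arrays and 1447 and 2057 on the CD10+ arrays, and in M1B26 it was 1812 and 2163 on the unsorted arrays, 2287 and 2442 on the CD10- arrays and 4544 and 5412 on the CD10+ arrays. Both CD10+ M1B26 arrays stood above the other 16, and both CD10- M1B26 arrays stood above every array of MCF10A-CT, MC26 and unsorted M1B26. The difference between CD10+ and CD10- M1B26 cells was 1.07 ± 0.19 (SE, n = 2 arrays per group), a 2.1-fold ratio (limma, adjusted p = 0.00248).

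TPM1 behaved in the same direction with more spread. Its intensity in MCF10A-CT was 595 and 616 on the unsorted arrays, 626 and 448 on the CD10- arrays and 648 and 455 on the CD10+ arrays. For this gene, in MC26 it was 519.5 and 1913 on the unsorted arrays, 633 and 509 on the CD10- arrays and 538 and 553 on the CD10+ arrays, and in M1B26 it was 633 and 685 on the unsorted arrays, 669 and 514 on the CD10- arrays and 1513 and 1650.1 on the CD10+ arrays. The CD10+ M1B26 arrays were above all others except the second unsorted MC26 array, which was the highest of the 18. CD10+ exceeded CD10- M1B26 by 1.43 ± 0.41, a 2.69-fold ratio (limma, adjusted p = 0.0474). This call was lost in 12 of the 18 fits that left out 1 array, among them each of the 4 sorted M1B26 arrays (limma, adjusted p from 0.0993 to 0.254). With no testing level it was lost as well (limma, adjusted p = 0.0615).

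MYLK encodes the kinase that phosphorylates the myosin regulatory light chain. Its intensity in MCF10A-CT was 12.8 and 5.07 on the unsorted arrays, 16 and 9.27 on the CD10- arrays and 13.2 and 9.20 on the CD10+ arrays. For this gene, in MC26 it was 19.4 and 13.1 on the unsorted arrays, 11.2 and 9.06 on the CD10- arrays and 22.3 and 13.2 on the CD10+ arrays, and in M1B26 it was 13.3 and 14.2 on the unsorted arrays, 13.3 and 10.1 on the CD10- arrays and 72.1 and 43.6 on the CD10+ arrays. In 6 of the 9 groups the mean lay at or under the testing level, and both CD10+ M1B26 arrays stood above all others. CD10+ exceeded CD10- M1B26 by 2.18 ± 0.52, a 4.54-fold ratio whose size is uncertain because the CD10- arrays are near background (limma, adjusted p = 0.019). As MYLK was tested only through the group where it is high, this call is a description; in a fit of all 19775 genes with no testing level, where 3.61% were called, its adjusted p was 0.0333 (limma). Without the first CD10+ replicate or without the second CD10- replicate of M1B26 the call was lost, at adjusted p = 0.2 and 0.116 (limma).

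TAGLN encodes transgelin, an actin-bundling protein of smooth muscle. Its intensity in MCF10A-CT was 15.4 and 85.3 on the unsorted arrays, 10.7 and 15.5 on the CD10- arrays and 25.1 and 15.5 on the CD10+ arrays. For this gene, in MC26 it was 18.8 and 147 on the unsorted arrays, 62.5 and 18.4 on the CD10- arrays and 37.3 and 26 on the CD10+ arrays, and in M1B26 it was 26.7 and 28.7 on the unsorted arrays, 36.9 and 76.3 on the CD10- arrays and 119.7 and 359.5 on the CD10+ arrays. The CD10+ arrays of M1B26 were above its CD10- arrays without overlap, yet they lay far apart, and the second unsorted MC26 array lay between them. The difference of 1.95 ± 0.88 was a 3.86-fold ratio that did not pass (limma, adjusted p = 0.235).

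ACTA2, the alpha smooth muscle actin by which myoepithelial cells are commonly recognised, had intensities that in MCF10A-CT were 181 and 166 on the unsorted arrays, 324 and 521 on the CD10- arrays and 297 and 461 on the CD10+ arrays. For this gene, in MC26 it was 314 and 115 on the unsorted arrays, 281 and 148 on the CD10- arrays and 153 and 145 on the CD10+ arrays, and in M1B26 it was 251 and 189 on the unsorted arrays, 276 and 249 on the CD10- arrays and 611 and 461 on the CD10+ arrays. CD10+ arrays were above CD10- arrays in M1B26 without overlap, but the sorted MCF10A-CT arrays, at up to 521, overlapped with them. The difference in M1B26 was 1.02 ± 0.41, a 2.02-fold ratio that did not pass (limma, adjusted p = 0.169).

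CNN2, a calponin that is also expressed outside muscle, had the opposite sign. It read 878 and 1059 in CD10- and 468 and 738 in CD10+ M1B26 cells, against 407 to 792 on the other 14 arrays. The CD10- arrays of M1B26 were the highest of all, and the difference was -0.71 ± 0.27, which did not pass (limma, adjusted p = 0.144). CALD1, which encodes the filament-bound inhibitor caldesmon, varied least, between 2486 and 3953 over all arrays. It read 3651 and 2719 in CD10- and 3953 and 3883 in CD10+ M1B26 cells, a difference of 0.31 ± 0.16 (limma, adjusted p = 0.298). ACTG2, the gamma actin of visceral smooth muscle, read 29 and 40.9 against 23 and 38.2, with overlapping arrays and a difference of -0.21 ± 0.47 (limma, adjusted p = 0.87).

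Of the 8 tested contractile genes, 3 (TPM2, TPM1 and MYLK) were higher and none lower in CD10+ than in CD10- M1B26 cells, where 6.5% of all 12171 genes were called in either direction and 3.76% were called higher. Without MYLK, which entered through CD10+ M1B26, 2 of 7 were higher, 5 of the 7 lay above 0 and their median was 1.02, against 0.00812 over all genes. Arrays were separate for 6 of the 7, beside 53.7% of all genes in this comparison. At an unadjusted p under 0.05 there were 5 of the 7, beside 19.4% of all genes (limma).

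The replicate numbers were taken to pair the sorted arrays within each line. The labels do not state a pairing, and the link was weakest in M1B26, with a correlation of 0.18. A limma fit with that pairing as a block, over the sorted arrays alone, called 6 of the 8 in M1B26: ACTA2, TAGLN, TPM1, TPM2 and MYLK higher and CNN2 lower. The same fit called 21.1% of all genes, and it left 3 residual degrees of freedom with an infinite prior, so its p-values lean on a spread common to all genes. Without the first CD10+ or the second CD10- replicate of M1B26, the unblocked fit called only 1 of the 8, which was TPM2; TPM2 was called in all 18 fits that left out 1 array, with a highest adjusted p of 0.049 (limma). With the mean of all probe sets of each gene TPM1 alone was called, and TPM2 gave 0.51 without passing (limma, adjusted p = 0.466).

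**Figure D2:**
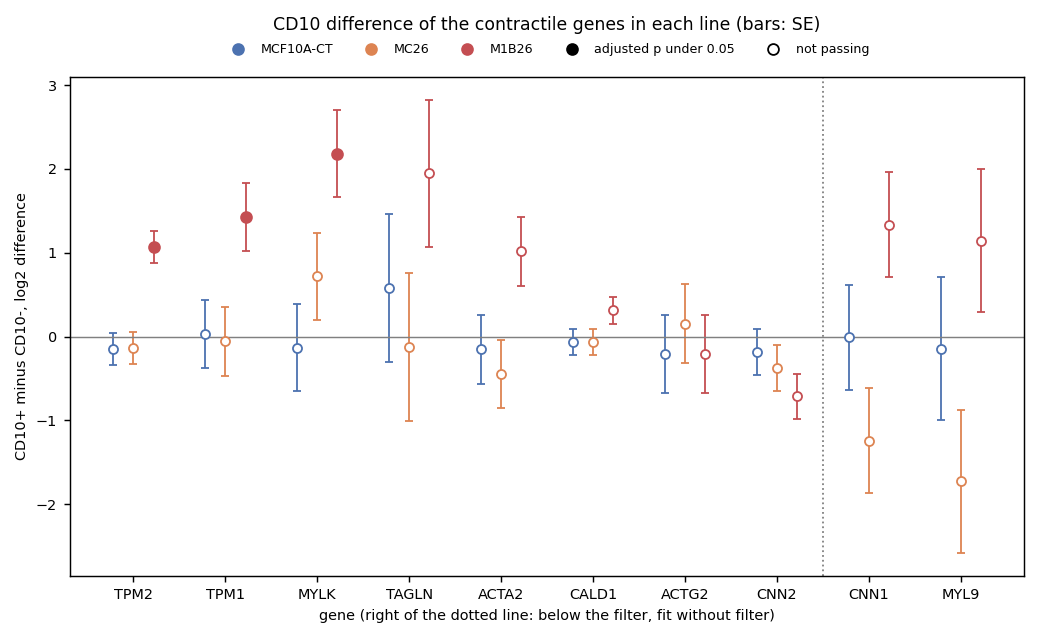
Difference between CD10+ and CD10- cells (y axis, log2, bars are SE from limma) for each contractile gene (x axis) in the 3 lines, with filled points where the adjusted p was under 0.05; CNN1 and MYL9, right of the dotted line, come from a fit without the testing level. The filled points are TPM2, TPM1 and MYLK in M1B26, at 1.07, 1.43 and 2.18, while the MCF10A-CT and MC26 points of the 8 tested genes lie within 0.72 of 0.

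In MCF10A-CT and MC26 no contractile gene was called between CD10+ and CD10- cells, by limma or by the unmoderated two-group test, where 0% of all genes were called. No contractile gene reached an unadjusted p under 0.05 in either line by either test. By limma only 166 of all 12171 genes did in MCF10A-CT and 100 in MC26. These 2 comparisons therefore do not set the contractile genes apart from other genes. The median difference of the 8 genes was -0.14 in MCF10A-CT and -0.10 in MC26, with 2 of the 8 above 0 in each, beside medians of -0.05 and -0.10 over all genes. CD10+ arrays read 1800.4 and 1572 for TPM2 in MCF10A-CT and 1447 and 2057 in MC26, and the values overlapped with those of the CD10- arrays in both lines. The average of the CD10 difference over the 3 lines had no contractile gene called, where 1.14% of all genes were, and 3 of the 8 were under an unadjusted p of 0.05, where 9.74% of all genes were (limma). With the pairing as a block and without unsorted arrays, 3 were called in the average, TAGLN at 0.80 and TPM1 at 0.47 higher and CNN2 at -0.42 lower, where 9.19% of all genes were called.

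The difference between the lines was tested on its own. The CD10 difference of TPM2 was 1.21 ± 0.27 greater in M1B26 than in MCF10A-CT (limma, adjusted p = 0.0372) and 1.20 ± 0.27 greater than in MC26 (limma, adjusted p = 0.0393). TPM2 was the single contractile gene called in these comparisons, where 1.38% and 1.27% of all genes were called and 0.666% and 0.657% were called higher. The calls were lost in 10 and 9 of the 18 fits that left out 1 array, and leaving out any of the 4 sorted M1B26 arrays ended both. Without either unsorted MC26 array TPM1 was called as well, against MCF10A-CT at 1.39 and against MC26 at 1.49. The paired block, fitted without unsorted arrays, called 3 of the 8 against MCF10A-CT (TPM2, TPM1 and ACTA2) and 4 against MC26 (these and TAGLN), with 11.5% and 10.9% of all genes.

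Other probe sets of the same genes were examined one by one, without the testing level, over 41091 probe sets, of which 2.9% were called between CD10+ and CD10- M1B26 cells. Of the 6 TPM1 probe sets 6 lay above 0 and 1 was called, 206116_s_at at 1.81 ± 0.43 (limma, adjusted p = 0.032). MYLK had 2 called of 5, 224823_at at 2.18 and 202555_s_at at 2.85 (limma, adjusted p = 0.0407 and 0.00925). TPM2 had 3 of 4 above 0, and its second probe set above the testing level, 212654_at, gave 1.05 ± 0.35, close to the 1.07 of the first, without passing (limma, adjusted p = 0.149).

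MYL9, the regulatory light chain that MYLK phosphorylates, was read differently by its 2 probe sets. The one chosen by the rule, 244149_at, was low on all arrays, at 1.90 and 12 in CD10- and 9.03 and 17.4 in CD10+ M1B26 cells, with overlapping arrays. The other, 201058_s_at, stood at 2.55 and 1.08 on the log2 scale in CD10- and at 7.26 and 8.23 in CD10+ M1B26 cells. Both CD10+ values were above all other arrays, of which the highest was 5.12 on the second unsorted MC26 array and the rest lay between 0.81 and 2.67. The difference of 5.93 ± 0.97 was called (limma, adjusted p = 0.00221), and its size is uncertain because the CD10- arrays lie in the background.

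The 3 TAGLN probe sets did not share a sign. Besides 1.95 for 205547_s_at, 1555724_s_at gave 3.42 ± 1.41 and 226523_at gave -0.77 ± 0.45, and none passed. CNN1, the calponin of differentiated smooth muscle, had a single probe set, which read 4.21 and 2.00 in CD10- and 6.97 and 11.5 in CD10+ M1B26 cells. These last were the highest CNN1 values of the 18 arrays, yet all CNN1 group means lay under the testing level. CALD1 had 9 of 11 probe sets above 0 and none called, and ACTA2 had 2 of 3. Probe set names ending in s_at or x_at, which mark possible binding to related transcripts, belong to the sets used for TAGLN, CNN2, TPM1 and TPM2.

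**Figure D3:**
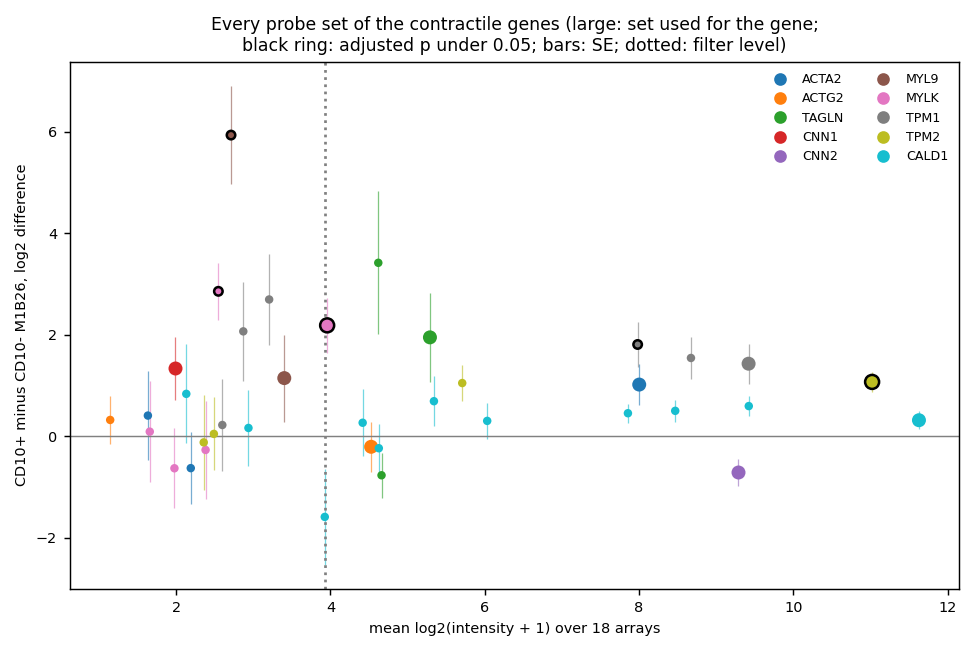
Each of the 38 probe sets of the contractile genes by its mean log2(intensity + 1) over 18 arrays (x axis) and its difference between CD10+ and CD10- M1B26 cells (y axis, log2, bars are SE); large points represent the gene, black rings mark an adjusted p under 0.05 and the dotted line is the testing level. The MYL9 set at 5.93 lies left of the testing level, and 5 probe sets carry a ring.

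Among CD10+ cells, 4 of the 8 tested genes were higher in M1B26 than in MCF10A-CT, where 26.4% of all genes were called and 21.1% were called higher. TAGLN differed by 3.33 ± 0.88 (a 10.1-fold ratio, adjusted p = 0.0136), MYLK by 2.24 ± 0.52 (adjusted p = 0.00697), TPM2 by 1.56 ± 0.19 (adjusted p = 6.38e-05) and TPM1 by 1.54 ± 0.41 (adjusted p = 0.0133), all by limma. Without the second CD10+ M1B26 replicate the TAGLN difference was 2.54 and not called (limma, adjusted p = 0.145), and without the first it was 4.12. MYLK was tested only through the CD10+ M1B26 arrays, as above, and its CD10+ MCF10A-CT mean of 3.59 lay under the testing level. Its call is therefore a description, and the genes called apart from it were TAGLN, TPM2 and TPM1. With MYLK counted, which entered through the high group, the 8 genes lay above 0, with a median of 1.26 beside 0.31 over all genes. The share of all genes above 0 was not computed, and 2571 genes were called higher against 648 lower. The signs of the 8 are therefore a description. ACTG2, ACTA2, CALD1 and CNN2, at 0.99, 0.52, 0.24 and 0.12, were not among the 4 called. The count fell to 2 without either CD10+ M1B26 replicate and to 1, TPM2, without the second CD10+ MCF10A-CT replicate. With arrays centred on the tested genes, which took 0.35 off each difference, TPM1 was 1.19 higher and just missed (limma, adjusted p = 0.0502).

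Between CD10+ MC26 and CD10+ MCF10A-CT cells 1 of the 8 tested genes was called, where 13.5% of all genes were called and 5.47% were called lower. This count is near the share of all genes. The gene was ACTA2, which was lower in MC26, at -1.30 ± 0.41, a ratio of 0.405 (limma, adjusted p = 0.0466). At an unadjusted p under 0.05 there were 3 of the 8, beside 3726 of all 12171 genes (limma). ACTA2 read 153 and 145 in CD10+ MC26 against 297 and 461 in CD10+ MCF10A-CT cells. The MC26 arrays were below the others, while the MCF10A-CT arrays lay far apart. The call was lost in 11 of the 18 fits that left out 1 array, at an adjusted p of 0.319 without the second CD10+ MCF10A-CT replicate (limma).

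Among CD10- cells limma called none of the 8 genes between MC26 and MCF10A-CT (20% of all genes) or between M1B26 and MCF10A-CT (26.4%). In each, 2 of the 8 were under an unadjusted p of 0.05 by limma, where 34.8% and 39.4% of all genes were. The unmoderated two-group test called none of the 8 here or in any other comparison of 2 groups, so this does not set these comparisons apart. By that test 1 of the 8 in each was under an unadjusted p of 0.05, where 16.3% and 15.4% of all genes were. Among unsorted cells none was called by either test, and none was under an unadjusted p of 0.05, between MC26 and MCF10A-CT (0.32% of all genes called by limma), M1B26 and MCF10A-CT (0.674%) or M1B26 and MC26 (0.0986%). In the same order, 972, 879 and 553 of all 12171 genes were under that unadjusted p by limma. These comparisons therefore do not set the 8 genes apart from other genes. Between sorted and unsorted cells averaged over the lines none was called, where 15.2% of all genes were, and 3 of the 8 were under an unadjusted p of 0.05, where 31.4% of all genes were (limma). ACTA2 and TPM2 were called there, both higher in sorted cells, with arrays centred on the tested genes, with quantile normalization and with the line by replicate number as a block. The shares of all genes called in those fits are not given here, so these calls are a description.

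The unsorted arrays of these genes were limited by their replicates. On the 2 unsorted MC26 arrays TPM1 read 519.5 and 1913, TAGLN 18.8 and 147 and ACTA2 314 and 115, so that the second array was higher for the first pair of genes and lower for ACTA2. The differences of the second from the first array were 1.88, 2.91 and -1.44 on the log2 scale, beside a median absolute difference of 0.317 over all tested genes. Unsorted MCF10A-CT showed the same for TAGLN, at 15.4 and 85.3, while TPM1 was even there, at 595 and 616. In unsorted M1B26, TAGLN and TPM1 were even, at 26.7 and 28.7 and at 633 and 685. The second MC26 array also read higher for the matrix gene FN1, at 33.7 and 395, and lower for the epithelial adhesion gene EPCAM, at 2210.2 and 529. Other mesenchymal genes went both ways, with COL1A1 at 44.7 and 317 and SPARC at 318 and 158. So did other epithelial genes, with KRT18 at 4390 and 2747 and CDH1 at 1191 and 1784. The part of these genes in the contractile values was not tested. A further TAGLN probe set, 1555724_s_at, was higher on the second unsorted array of every line, at 2.32 and 6.67 in MCF10A-CT, 2.69 and 7.03 in MC26 and 1.73 and 4.84 in M1B26 on the log2 scale. Without the second MC26 array none of the 8 genes was called between unsorted MC26 and MCF10A-CT, and without the first TPM1 was called, at 1.66 (limma, adjusted p = 0.008).

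**Figure D4:**
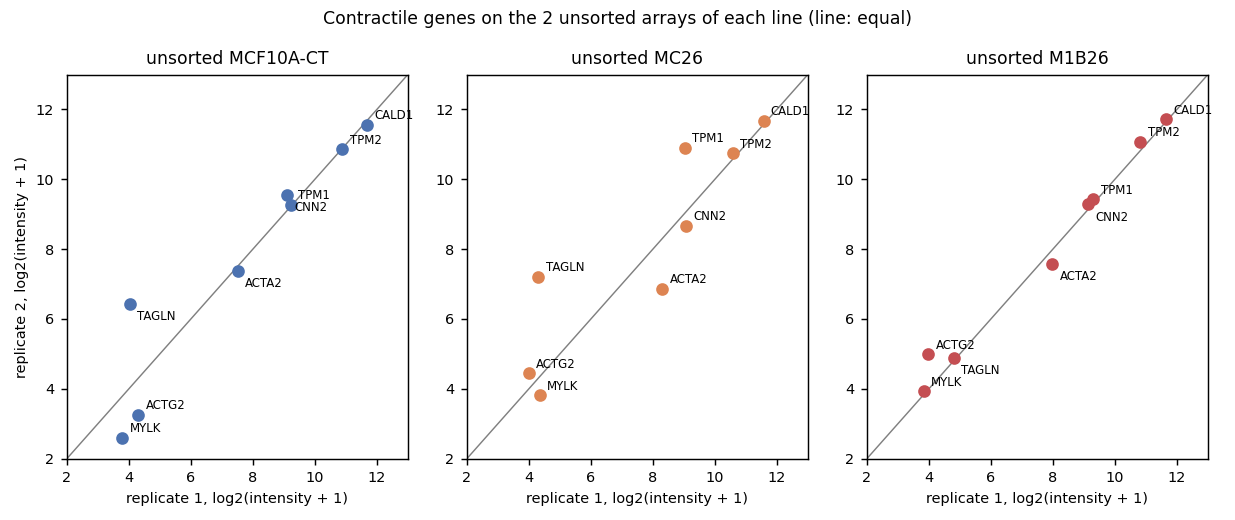
Log2(intensity + 1) of the 8 tested contractile genes on the first (x axis) and second (y axis) unsorted array of each line, with a line of equality. TPM1 and TAGLN lie above the line and ACTA2 below it in MC26, at differences of 1.88, 2.91 and -1.44, and TAGLN lies above it in MCF10A-CT.

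Other genes of the contractile programme were taken from lists. Of 18 smooth muscle differentiation genes 17 were on the array, 8 were tested, and none was called between CD10+ and CD10- M1B26 cells, nor was any under an unadjusted p of 0.05 (limma), with a median of 0.07. The smooth muscle myosin MYH11, the intermediate filament gene DES and the coactivator MYOCD had means of 3.49, 3.75 and 3.11 on the log2 scale over all arrays, under the testing level. Of 12 tested nonmuscle relatives 1 was called, the light chain gene MYL6B at 0.92 ± 0.21 (limma, adjusted p = 0.012), and the median was 0.20. ACTB and MYH9, the cytoplasmic actin and nonmuscle myosin, differed by -0.15 ± 0.18 and 0.35 ± 0.26 without passing.

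Of 14 tested genes of serum response factor and its MRTF coactivators, 3 were higher and 1 was lower in CD10+ M1B26 cells. TGFB1I1, a focal adhesion protein, was higher by 1.54 ± 0.33 and the matricellular CCN1 and CCN2 by 1.53 ± 0.40 and 1.46 ± 0.38, whereas the actin-bundling LIMA1 was lower, at -1.23 ± 0.31 (limma, adjusted p = 0.00815, 0.0322, 0.0325 and 0.0252). SRF itself differed by 0.14 ± 0.34 and did not pass. None of 10 tested genes of light chain phosphorylation was called or was under an unadjusted p of 0.05 (limma), with a median of 0.05.

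Some genes used as markers of other cell types differed in the same comparison, and all arrays were of cells of the 3 mammary epithelial lines. Of 10 tested fibroblast and mesenchymal genes 6 were higher in CD10+ than in CD10- M1B26 cells, with a median of 3.08: DCN by 4.64 ± 0.75, COL6A1 by 4.24 ± 0.39, COL6A3 by 3.57 ± 0.47 and ZEB1 by 2.89 ± 0.38 (limma, adjusted p = 0.00117, 1.2e-05, 0.000205 and 0.000201), beside FN1 and S100A4. The 4 not called were COL1A1, SPARC, VIM and FAP, with group means of 7.21, 10.43, 13.12 and 8.30 on the log2 scale in CD10+ M1B26. In CD10- M1B26 they stood at 6.73, 9.31, 12.82 and 9.06, so that FAP alone was lower in CD10+ cells. The mean of the tested list was 10.52 to 10.59 on the CD10+ M1B26 arrays and 8.02 to 8.46 on the CD10- M1B26 arrays, and between 6.94 and 8.68 on the other 14. The fibroblast genes COL3A1, PDGFRA and PDGFRB stayed under the testing level in CD10+ M1B26, at 2.26, 3.24 and 3.16. Of the other untested genes of the list COL1A2 stood there at 4.42, THY1 at 4.47 and LUM at 9.12, against 3.59, 3.67 and 4.79 in CD10- M1B26. The 2 tested pericyte and vascular smooth muscle genes, RGS5 and MCAM, differed with a median of 1.20 and neither was called; their mean was 7.38 on both CD10+ M1B26 arrays and 5.34 to 6.78 on the other 16, while of the untested genes CSPG4 was at 1.69 and NOTCH3 at 6.84 in CD10+ M1B26, against 1.35 and 3.30 in CD10- M1B26. Of 4 endothelial and 4 leukocyte genes on the array, 1 and 2 were tested and none was called, with 1 leukocyte gene under an unadjusted p of 0.05 (limma); the endothelial CDH5 and VWF and the leukocyte PTPRC had means of 1.31, 2.66 and 2.53 on the log2 scale over all arrays, under the testing level. The part of cells of these lines that express such genes in the contractile values was not tested. In bulk RNA fewer cells of a type and less RNA per cell cannot be told apart.

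Some epithelial genes were lower. Of 6 tested basal genes outside the contractile set 3 were lower in CD10+ M1B26 cells, the integrins ITGA6 at -2.28 ± 0.21 and ITGB4 at -1.46 ± 0.37 and the cadherin CDH3 at -1.69 ± 0.20 (limma, adjusted p = 1.23e-05, 0.0277 and 7.57e-05), and the mean of the list was 10.18 to 10.27 there and 10.36 to 11.56 on the other 16 arrays. Of 8 tested luminal genes 3 were lower, among them EPCAM at -4.09 ± 0.46 and CDH1 at -3.64 ± 0.24, and KRT8 was higher by 0.94 ± 0.24; 5 of the 8 lay above 0, with a median of 0.33. In MCF10A-CT and MC26 no gene of any of these lists was called between CD10+ and CD10- cells, where 0% of all genes were called (limma). These 2 comparisons therefore do not set the lists apart from other genes.

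**Figure D5:**
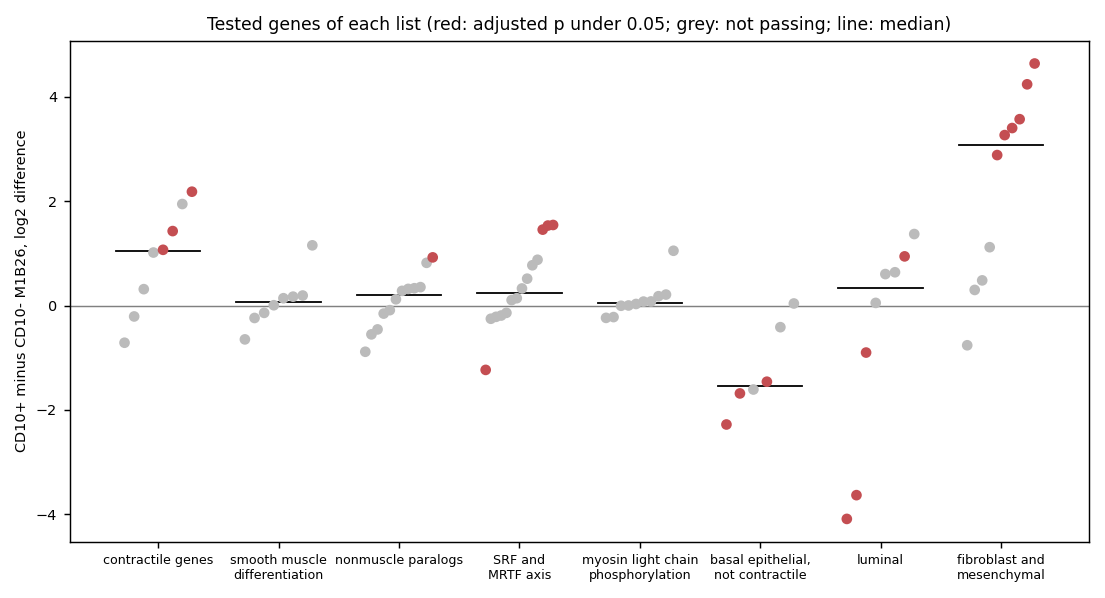
Difference between CD10+ and CD10- M1B26 cells (y axis, log2) for the tested genes of each list (x axis), with red points where the adjusted p was under 0.05 and a black line at the list median. The contractile median of 1.04, with MYLK included, lies above the smooth muscle, nonmuscle and phosphorylation medians of 0.07, 0.20 and 0.05 and below the fibroblast and mesenchymal median of 3.08.

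Over the 18 arrays the contractile genes were not one block. TPM1 and TAGLN had a Pearson correlation of 0.79 (log2, n = 18), and of 0.62 over the 16 arrays without CD10+ M1B26. TPM2 and MYLK stood at 0.69 with and -0.30 without those arrays, and ACTA2 and TAGLN at 0.04 with and -0.50 without. These are descriptions over arrays that share lines and groups. The genes whose pattern was most like that of a contractile gene were outside the set in each of the 8 cases, 3 for each gene: for TPM2 they were RTL8C, USP11 and COL6A3 (r = 0.95, 0.94 and 0.93), for MYLK ARHGEF6, RCN1 and TBX3 (0.89, 0.87 and 0.87), for TPM1 MAP3K5, CMKLR2 and GPAM (0.92, 0.91 and 0.90), and for ACTA2 SIDT2, TMEM101 and LMAN1 (0.94, 0.92 and 0.91). MME itself correlated with MYLK at 0.84, and at 0.52 without the CD10+ M1B26 arrays.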

How the data were processed

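The data were 18 Affymetrix HG-U133 Plus 2.0 arrays of 3 lines, each unsorted or sorted by membrane CD10, with 2 arrays in each of 9 groups. The authors deposited linear intensities for all probe sets, credited in the processing notes to Affymetrix Expression Console and MAS5 with no versions. All arrays share 1 median, 16.7, while upper quartiles ran from 95.1 to 124. The methods name RMA, which these values do not follow. Scaling to a common median makes each difference relative to the bulk of probe sets. All 18 columns were used.

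Of 54675 probe sets, 62 were controls, 41091 had 1 gene, 1801 several and 11721 none. Intensities were analysed as log2(intensity + 1), a pseudocount of 1. Each gene was read by its brightest probe set, and a gene was tested only with a mean above 3.93 on the log2 scale, the median over the probe sets. One fit of 9 group means (R 4.3.3, limma 3.58.1, lmFit, eBayes with an intensity trend, two-sided) had 9 residual and 6.28 prior degrees of freedom. An adjusted p under 0.05 (Benjamini-Hochberg over 12171 genes within a contrast) was called, and errors are SEs from limma unless another is named. The script was tested on simulated data first. With 2 arrays per group, the number of arrays limits the precision.

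Same-numbered CD10- and CD10+ arrays deviated together in each line (correlations of 0.63, 0.36 and 0.18), so the numbers were taken to pair them. Groups of different lines gave correlations from -0.20 to 0.46, so that the pairing is uncertain, most of all in M1B26. Alternatives changed the pseudocount, normalization, filter, probe set rule, trend, block, test and samples. The members, lists and tests were chosen with earlier results of these data known. The text names every contractile gene and MME, up to 4 genes per other list by smallest p, further list genes chosen after their values were seen, and the 3 genes most correlated with a contractile gene. Promoter windows are RefSeq's.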

Additional observations from a re-analysis of the deposited data

Results flagged for a closer look

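The CD10 difference of TPM2 differed between lines by a test of the difference itself. It was 1.21 log2 units greater in M1B26 than in MCF10A-CT and 1.20 greater than in MC26 (limma, adjusted p = 0.0372 and 0.0393, n = 2 arrays per group). CD10+ arrays exceeded CD10- arrays in M1B26 and overlapped with them in both other lines. Both tests share the 4 sorted M1B26 arrays.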

How the results depend on the processing

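No call of a single contractile gene changed sign under any alternative; 205 of its recomputed values stayed on the same side of the threshold and 81 no longer passed. The numbers of contractile genes called, of 8 tested, moved as follows. A count without a share of all genes beside it is a description of that fit. Between CD10+ and CD10- M1B26 cells, 3 became 1 (TPM1) with the mean of all probe sets of a gene, 5 in a fit of only the 2 groups (11.4% of all genes called), 6 with the replicate block on sorted arrays alone, 0 with the unmoderated two-group test (0% of all genes), and 1 to 3 in leave-one-out fits. In the average over lines, 0 became 3 with that block. The TPM2 difference between lines, 1 call against each of MCF10A-CT and MC26, became 0 with every probe set tested alone, the mean of probe sets, no filter or no trend, 3 and 4 with the block, and 0 to 2 in leave-one-out fits. For CD10+ M1B26 against MCF10A-CT, 4 became 0 with the mean of probe sets or the unmoderated test, and 1 to 4 in leave-one-out fits. For CD10+ MC26 against MCF10A-CT, 1 became 2 (ACTA2 and CALD1) with centred or quantile-normalized arrays, 0 with every probe set alone, the mean of probe sets, no filter, no trend or the unmoderated test, and 0 to 1 in leave-one-out fits. Among CD10- cells, 0 became 1 with centring or quantile normalization in both lines (CALD1 lower), 1 for M1B26 in a fit of only the 2 groups (TAGLN), and 0 to 1 in leave-one-out fits. For sorted against unsorted cells, 0 became 2 (ACTA2 and TPM2 higher) with centring, quantile normalization or the line by replicate block on all arrays, 2 with every probe set alone, and 0 to 2 in leave-one-out fits. Between unsorted lines, leave-one-out counts ran from 0 to 1. Blocking all 18 arrays on the replicate number moved no count by over 1.5 times; it called 2 in M1B26. Testing every probe set alone, and taking the highest probe set on each array, were chosen after seeing the data; the second moved no count by over 1.5 times. The causes were not tested. Near background, where CNN1, the MYL9 probe set of the rule and most MYLK groups lie, sizes are uncertain.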
